A study of Mus musculus with 2 samples.

Results

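The 9 genes described here encode gap junction and membrane channel subunits. They were the connexin genes *Gja1*, *Gjb6*, *Gjb1*, *Gjc1*, *Gjc3*, *Gja4*, *Gja5* and *Gjd2* and the pannexin gene *Panx1*. They were taken by symbol from the 32285 genes of the count matrices, and each of the 9 symbols named 1 gene. The matrices held 2 single-cell RNA libraries of striatum, replicates 1 and 2 of 1 condition. They came from untreated adult mice whose strain is given as C57/Bl6J and whose age is given as 8 to 10 weeks. The sources differ on strain and age, and the study describes male mice of a younger age range for this assay. No genetic change or agent is listed for the mice. The tissue was digested with pronase, filtered and cleared of myelin in a protocol chosen for non-neuronal cells. The study states that actinomycin D was present during dissociation, to keep stress from changing transcription. The labels do not say how many mice entered each library, so the spread between the libraries may be technical.

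Each captured mRNA carried a cell barcode and a unique molecular identifier (UMI), so copies made by PCR were counted once. Library 1 held 6978 barcodes with a median of 3852 UMIs, library 2 held 5437 with a median of 5375, and 9 barcode sequences occurred in both. After removal of cells with fewer than 300 detected genes and of predicted doublets, 12007 cells were grouped by their expression, with the 9 genes left out of the grouping, and the groups were named from marker genes. They comprised 2397 astrocyte-like, 2398 oligodendrocyte-like, 642 oligodendrocyte precursor (OPC)-like, 2141 microglia-like, 169 macrophage-like, 1413 endothelial-like, 553 mural-like, 641 neuron-like and 1557 neuroblast-like cells. A further 96 erythroid-like cells, 85 of them in library 1, entered no comparison. The labels call the cells glia enriched, and the classes raised between 5 and 9 of their own markers in each cluster. Of the oligodendrocyte-like cells, 716 formed a cluster in which 5 of 8 markers were raised and the median mitochondrial share of UMIs was 22.3%.

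Connexins assemble into hexameric hemichannels, and hemichannels of neighbouring cells dock to form gap junctions through which ions and small metabolites pass. In the brain, astrocytes couple to each other and to oligodendrocytes, oligodendrocytes use their own set of connexins, and the cells of the vessel wall use another. Pannexins have the same membrane topology but unrelated sequence, and *Panx1* forms a channel known for release of ATP.

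The genes lay on 9 chromosomes of GRCm38. *Gja1* spanned chr10:56377330-56402513 and *Gja5* chr3:96904693-97077416, both on the plus strand, as did *Gjb1* at chrX:101376378-101385629. On the minus strand lay *Gjb6* at chr14:57123303-57133611, *Gjc1* at chr11:102799579-102819700, *Gjc3* at chr5:137953461-137963098, *Gja4* at chr4:127311421-127314039, *Gjd2* at chr2:114009601-114013619 and *Panx1* at chr9:15002128-15045478. *Gja5* overlapped 4 genes on the other strand, and *Gjd2* overlapped the transcript *A530058N18Rik*. Whether the counting used strand is not given in the sources used here, so the few counts of these 2 genes are uncertain.

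The sequences below show what makes the 8 connexins 1 family and what sets *Panx1* apart. In each connexin the first extracellular loop, which docks to the hemichannel of the next cell, carries 3 cysteines in fixed spacing. The coding strand of the 36 bases that span them is printed from the reference genome, 5′ to 3′, with the cysteine codons in capitals. In all 8 genes the stretch lies inside a coding exon, and it starts between codon 53 and codon 64.

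*Gja1*, exon 2, chr10:56387706-56387741, plus strand: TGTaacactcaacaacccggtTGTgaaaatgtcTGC

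*Gjb6*, exon 3, chr14:57124611-57124646, minus strand: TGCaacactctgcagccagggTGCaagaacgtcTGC

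*Gjb1*, exon 2, chrX:101384324-101384359, plus strand: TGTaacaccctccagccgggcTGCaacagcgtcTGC

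*Gjc3*, exon 2, chr5:137957797-137957832, minus strand: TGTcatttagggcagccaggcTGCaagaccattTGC

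*Gjc1*, exon 3, chr11:102800984-102801019, minus strand: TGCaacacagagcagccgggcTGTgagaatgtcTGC

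*Gja4*, exon 2, chr4:127312774-127312809, minus strand: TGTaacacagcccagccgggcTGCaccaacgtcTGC

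*Gja5*, exon 2, chr3:97050788-97050823, plus strand: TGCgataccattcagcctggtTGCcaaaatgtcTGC

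*Gjd2*, exon 2, chr2:114011797-114011832, minus strand: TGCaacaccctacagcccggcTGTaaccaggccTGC

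The coding sequence of *Panx1* held 0 matches to this spacing of cysteines. Among the connexins, *Gjb1* and *Gja4* shared 31 of 36 bases, the most of any pair, although the first was highest in oligodendrocyte-like and the second in mural-like cells. The oligodendrocyte connexin *Gjc3* shared 18 of 36 bases with *Gja1* and with *Gjd2*, the fewest of any pair.

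The members divided by tissue compartment. *Gja1* and *Gjb6* were highest in astrocyte-like cells, *Gjb1* and *Gjc3* in oligodendrocyte-like cells, *Gjc1* and *Gja4* in mural-like cells, and *Panx1* in OPC-like cells. Levels are given as UMIs per 1000000 UMIs of all cells of a class in a library (CPM), with library 1 first. These are counts of molecules at the 3′ end and were compared between classes for 1 gene at a time.

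**Figure D1:**
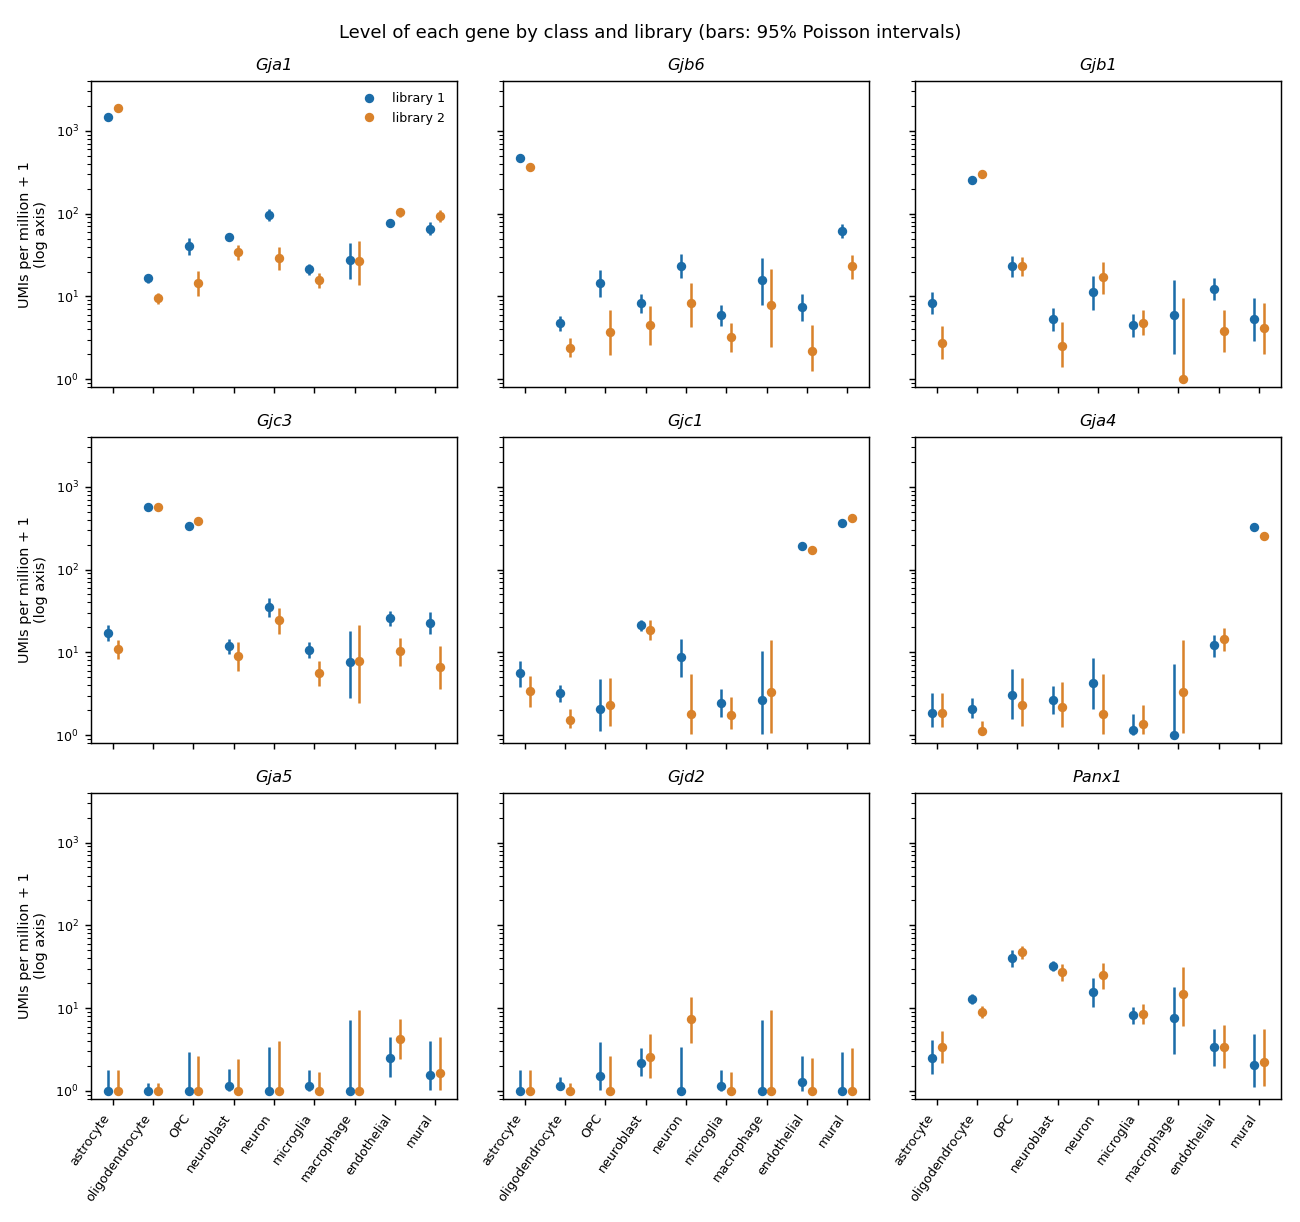
Level of each gene in the 9 classes, as CPM plus 1 on a log axis, with 1 point per library and 95% Poisson intervals that cover counting error only. *Gja1* and *Gjb6* stand apart in astrocyte-like cells, *Gjb1* and *Gjc3* in the oligodendrocyte lineage, *Gjc1* and *Gja4* in vessel cells, and *Gja5* and *Gjd2* reach at most 6.42 CPM in any class.

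Classes were compared by the edgeR quasi-likelihood test on UMIs summed per library and class, each class against the mean of the other 8, with Benjamini-Hochberg adjustment over 15142 genes. *Gja5* and *Gjd2* did not pass the filter on low counts, so 7 of 9 members were tested. In astrocyte-like cells 2 of the 7 were higher, where 29.0% of all genes tested were, and in oligodendrocyte-like cells 3 were, where 35.2% of all genes were. The corresponding figures were 3 of 7 against 25.7% in OPC-like cells, 3 against 26.3% in endothelial-like cells, 3 against 22.9% in mural-like cells, 2 against 30.4% in neuroblast-like cells and 1 against 26.2% in neuron-like cells. In microglia-like and macrophage-like cells 0 of the 7 were higher, against 34.2% and 17.8% of all genes. The split of all calls moved with the scaling of the libraries. With composition scaling by the trimmed mean of M values (TMM) it was 3895 higher and 3430 lower in OPC-like cells, 5335 and 3559 in oligodendrocyte-like cells, 5185 and 3373 in microglia-like cells, 3968 and 4490 in neuron-like cells and 2691 and 2396 in macrophage-like cells. Without TMM these became 6932 and 1600, 3187 and 5865, 3302 and 5465, 5075 and 2930, and 2406 and 3307. With the size factors of DESeq2 they became 4076 and 5530 in oligodendrocyte-like, 3880 and 5460 in microglia-like, 4911 and 2946 in neuron-like and 2939 and 1717 in macrophage-like cells. The median change of all genes moved without TMM from -0.10 to 0.35 on the log2 scale in OPC-like cells and from -0.02 to -0.44 in oligodendrocyte-like cells, the widest moves among the classes. With 7 genes the counts of members did not set the members apart from the other genes tested, and the values that follow concern which gene was raised in which class and by how much.

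**Figure D2:**
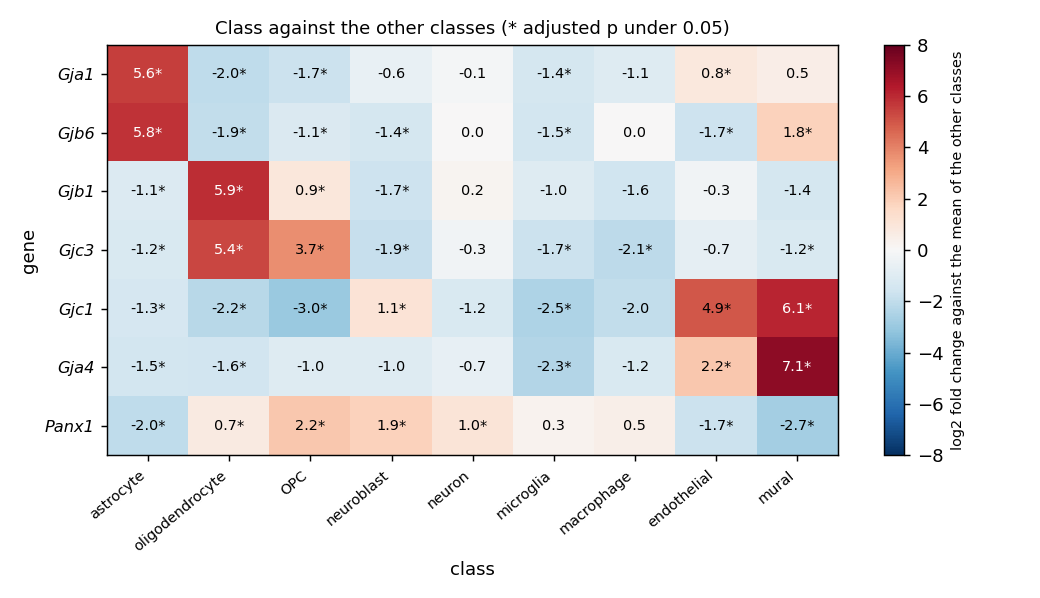
Fitted log2 fold change of each tested gene in each class against the mean of the other classes, with an asterisk where the edgeR adjusted p is under 0.05. The largest rises were 7.13 for *Gja4* and 6.06 for *Gjc1* in mural-like cells, 5.90 for *Gjb1* in oligodendrocyte-like cells and 5.78 for *Gjb6* in astrocyte-like cells.

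*Gja1* encodes Cx43, the main astrocyte connexin. In astrocyte-like cells it reached 1458 CPM in library 1 and 1899 CPM in library 2, and the next class in order, endothelial-like cells, reached 76.0 and 104 CPM. The astrocyte levels did not overlap those of any other class. The rise was 5.56 ± 0.20 on the log2 scale (edgeR adjusted p = 4.8e-13), where ± here and below is an approximate SE derived from the test. Below astrocyte-like cells the order was endothelial-like, mural-like, neuron-like, neuroblast-like, OPC-like, macrophage-like, microglia-like and oligodendrocyte-like cells. Neighbours in that order overlapped between the libraries, except macrophage-like and microglia-like cells. Oligodendrocyte-like cells had the lowest *Gja1*, at 15.6 and 8.52 CPM.

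Low *Gja1* outside astrocyte-like cells was set beside its level in erythroid-like cells, a class that should lack the gene. There *Gja1* was at 22.9 CPM in library 1, from 16 UMIs, and at 109 CPM in library 2, from 8 UMIs in 11 cells, with a Poisson interval from 46.9 to 214 CPM. The endothelial level of *Gja1* passed the test, at 0.85 ± 0.28 on the log2 scale (edgeR adjusted p = 0.0206). In library 1 it was at 76.0 CPM (67.0 to 85.9), above the erythroid-like interval of 13.1 to 37.2 CPM. In library 2 it was inside the erythroid-like interval, which there rested on 11 cells. *Gja1* UMIs were found in 79.3% of astrocyte-like cells on average over the libraries, against 10.6% of oligodendrocyte-like and 8.55% of microglia-like cells. With every cell thinned to 1000 UMIs, which left out 451 astrocyte-like cells, the shares were 72.6%, 1.81% and 1.95%.

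*Gjb6* encodes Cx30, the other connexin that astrocytes are known for. It was at 467 and 365 CPM in astrocyte-like cells, with no overlap with the next class, mural-like cells, at 61.0 and 22.1 CPM. The rise in astrocyte-like cells was 5.78 ± 0.15 on the log2 scale (edgeR adjusted p = 1.2e-14). *Gjb6* UMIs were found in 50.2% of astrocyte-like cells, and in 27.4% of those thinned to 1000 UMIs. In the thinned astrocyte-like cells of the finer resolution, which leave out ependymal-like cells, both genes were found together in 225 of 965 cells of library 1 and in 194 of 875 of library 2. Of the cells with a *Gja1* UMI, 33.2% and 28.6% also held *Gjb6*, and of those without, 22.6% and 23.5% did. At 1000 UMIs per cell a gene at this level is often missed, so the cells without a UMI do not mark a population that lacks it.

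The share of *Gjb6* among the summed UMIs of *Gja1* and *Gjb6* differed between the libraries. In astrocyte-like cells it was 24.3% in library 1 (95% exact binomial interval 23.4 to 25.2%) and 16.1% in library 2 (15.4 to 16.8%), so *Gja1* was the higher and *Gjb6* the lower of the pair in library 2. The shares in microglia-like cells, 19.6% and 13.04%, and in oligodendrocyte-like cells, 19.4% and 14.1%, moved between the libraries in the same direction, and in neuron-like cells the share was 19.02% and 20.5%, the only class in which it was higher in library 2. In endothelial-like cells the share was lower, at 7.83% and 1.16%, and the intervals of both libraries ended below those of astrocyte-like cells. Intervals here and below cover counting error only.

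Astrocyte-like cells were divided further into 5 subclusters. The deepest, with 626 cells and a median of 8164.5 UMIs, held *Gja1* at 1724 and 2069 CPM and *Gjb6* at 622 and 368 CPM. A subcluster of 764 shallow cells (median 1158.5 UMIs), led by the microglia genes *C1qb* and *C1qa* and the myelin gene *Mal*, had *Gja1* at 973 and 1438 CPM and *Gjb6* at 322 and 279 CPM. The lower *Gja1* moved with these genes of other cell types, and their part in it was not tested. A subcluster of 72 cells led by *Igsf1* and *Agt*, of which 11 came from library 1, had the highest level of both genes, with *Gja1* at 2303 and 2428 CPM and *Gjb6* at 1041 and 910 CPM. In the last the *Gjb6* share was 31.1% and 27.3%, above that of all astrocyte-like cells in library 2. These subclusters were formed from the same cells and are described without a test.

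**Figure D3:**
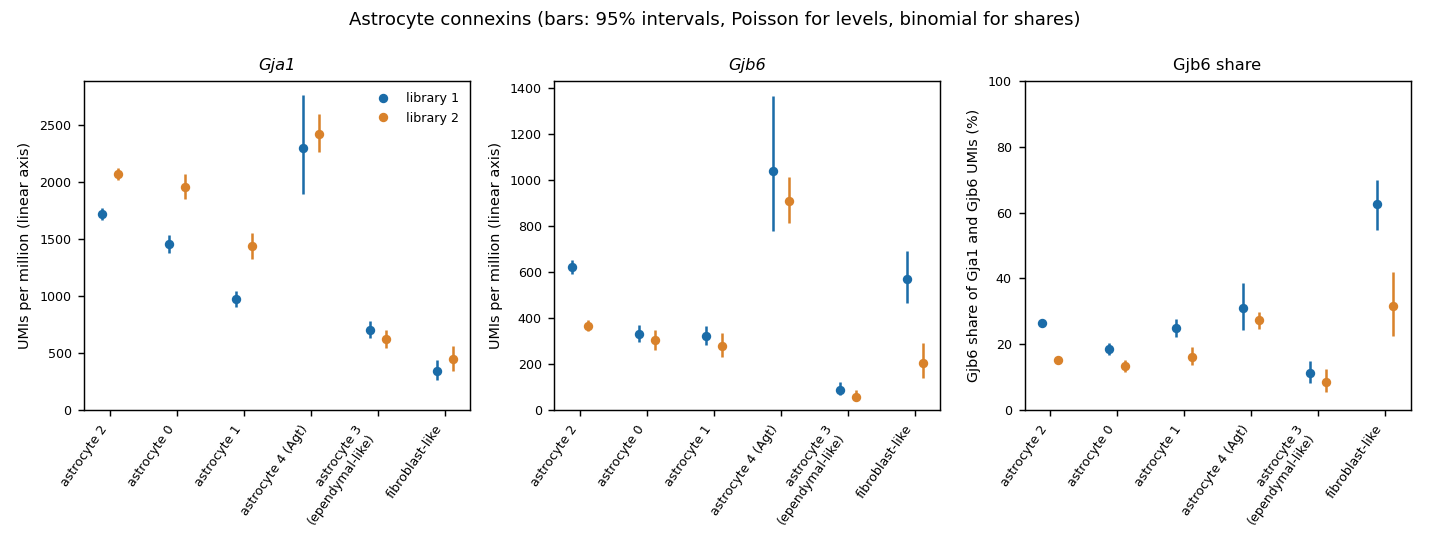
Level of *Gja1* (left) and *Gjb6* (middle) in CPM on linear axes, and the *Gjb6* share of the UMIs of both genes in percent (right), in the 5 astrocyte subclusters and in fibroblast-like cells, with 1 point per library and 95% intervals. Both genes are highest in the subcluster led by *Igsf1* and *Agt* and lowest, among the astrocyte subclusters, in the ependymal-like one, where the share is 11.2% and 8.63%.

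Ependymal-like cells, the ciliated lining of the ventricle, formed a cluster of 150 cells at a finer resolution. At the coarse resolution 59 and 51 of these cells were in the astrocyte-like class and 26 and 14 in the neuroblast-like class, and the cluster also raised 5 neuroblast markers. *Gja1* was at 479 and 526 CPM there, and *Gjb6* at 44.7 and 52.7 CPM. The cells from the neuroblast-like class held 21 of the 311 *Gja1* UMIs of the cluster in library 1 and 6 of 289 in library 2. In the ependymal-like subcluster of the astrocyte-like class *Gja1* was higher, at 705 and 623 CPM, as was *Gjb6*, at 89.2 and 58.9 CPM. In the whole cluster of 150 cells, against the remaining astrocyte-like cells, *Gja1* fell by 2.17 ± 0.34 on the log2 scale (edgeR adjusted p = 3.6e-05) and *Gjb6* fell by 3.58 ± 0.31 (edgeR adjusted p = 1.9e-08). No such test was made for the subcluster. *Panx1* was higher in ependymal-like cells by 1.60 ± 0.54 (edgeR adjusted p = 0.027), from 7 and 4 UMIs, of which 6 and 3 lay in the 26 and 14 cells from the neuroblast-like class and 1 in each library in the others. Of the 7 members tested, 3 were called in this comparison, where 29.7% of 15344 genes were, 2222 of them higher and 2328 lower with TMM and 3423 and 1419 without it. The *Gjb6* share of the pair, 8.53% and 9.12%, was below that of astrocyte-like cells in both libraries.

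The study divides astrocytes by *Crym*, the gene of μ-crystallin, and asks how the cells with and without it differ. In the astrocyte-like cells 517 and 446 were *Crym*+, and 850 and 584 were *Crym*-. The *Crym*+ cells were the deeper ones, since in library 1 the 517 *Crym*+ cells held 2310185 UMIs and the 850 *Crym*- cells 2310692. *Gja1* was at 1534 and 1959 CPM in *Crym*+ cells and at 1382 and 1831 CPM in *Crym*- cells, higher in *Crym*+ cells of both libraries by less than the libraries differed. The difference was 0.11 ± 0.07 on the log2 scale (edgeR adjusted p = 0.334). *Gjb6* was at 488 and 315 CPM in *Crym*+ cells and at 447 and 421 CPM in *Crym*- cells, so the libraries moved in opposite directions (-0.15 ± 0.09, edgeR adjusted p = 0.350). Thus 0 of the 2 members tested passed, where 8.96% of 6108 genes did. That was 547 genes, while DESeq2 called 46 and edgeR without the library as a block called 2. With no filter on low counts *Gja1* passed at 0.20 (edgeR adjusted p = 0.0317). *Gjb6* passed at -0.31 in cells with at least 500 genes and at -0.32 in cells under 20% mitochondrial UMIs (edgeR adjusted p = 0.00694 and 0.0264), and over the other fits its adjusted p ran from 0.0781 in edgeR with cells thinned to 0.952 in edgeR without the block.

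Oligodendrocytes are known to join astrocytes through Cx32, encoded by *Gjb1*, and to carry Cx29, encoded by *Gjc3*. *Gjb1* was at 252 and 298 CPM in oligodendrocyte-like cells and at 22.3 CPM in OPC-like cells of both libraries. The rise in oligodendrocyte-like cells was 5.90 ± 0.19 on the log2 scale (edgeR adjusted p = 4.9e-14), and OPC-like cells also passed, at 0.93 ± 0.33 (edgeR adjusted p = 0.0275). After OPC-like cells came neuron-like cells, at 10.3 and 16.1 CPM, below them in both libraries.

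*Gjc3* was at 569 and 572 CPM in oligodendrocyte-like cells and at 338 and 383 CPM in OPC-like cells, with no overlap. Both classes passed the test, at 5.36 ± 0.16 on the log2 scale (edgeR adjusted p = 1.7e-14) and 3.71 ± 0.18 (edgeR adjusted p = 3.1e-11). The next class, neuron-like cells, was at 34.0 and 23.3 CPM. OPC-like cells thus held much *Gjc3* and little *Gjb1*. *Gjc3* UMIs were found in 89.5% of oligodendrocyte-like and 77.5% of OPC-like cells, and in 43.8% and 33.2% after thinning, and *Gjb1* in 68.9% and 19.6% of oligodendrocyte-like cells.

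The windows upstream of these 2 genes are shown because both genes were highest in oligodendrocyte-like cells but differed in how high they were in OPC-like cells. The 250 bases before the start site are from RefSeq on GRCm38.p6, and capitals mark the letters ACAAAG or ACAATG, the core bound by Sox factors, read on either strand. Of 32851 promoter windows of this length, 25.2% held at least 1 such match. The 3′ reads of these libraries do not tell which start site was used.

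*Gjb1*, chrX:101383482-101383731, plus strand: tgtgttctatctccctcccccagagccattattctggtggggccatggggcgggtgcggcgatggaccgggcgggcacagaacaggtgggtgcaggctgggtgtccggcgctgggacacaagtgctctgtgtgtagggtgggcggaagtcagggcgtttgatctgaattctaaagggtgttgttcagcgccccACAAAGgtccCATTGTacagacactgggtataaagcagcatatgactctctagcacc

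*Gjc3*, chr5:137963099-137963348, minus strand: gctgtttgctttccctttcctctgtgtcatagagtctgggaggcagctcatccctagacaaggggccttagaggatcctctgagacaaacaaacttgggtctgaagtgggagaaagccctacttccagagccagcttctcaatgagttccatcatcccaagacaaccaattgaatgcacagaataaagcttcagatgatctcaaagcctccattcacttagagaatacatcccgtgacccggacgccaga

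The *Gjb1* window lies at the start site nearest to the coding sequence and held 2 matches. The first started 57 bases and the second 47 bases before the start site. The windows at the other listed start sites of *Gjb1*, which are not printed, held 1, 0 and 0 matches. The *Gjc3* window held 0, which says only that these letters are not in it.

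At the finer resolution a cluster of 272 newly formed oligodendrocyte-like cells, which raised 6 of 6 markers, separated from the mature cells. *Gjc3* was at 743 and 720 CPM in them, *Gjb1* at 27.7 and 47.8 CPM, and *Panx1* at 67.6 and 51.1 CPM. The mature cells that remained held *Gjc3* at 535 and 547 CPM, *Gjb1* at 297 and 339 CPM and *Panx1* at 0.654 and 0.852 CPM. In CPM the newly formed cells thus lay nearer to OPC-like than to mature cells in *Gjb1* and *Panx1*, and nearer to mature cells in *Gjc3*. They were above both in *Gjc3* and *Panx1* in both libraries.

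Between newly formed and mature cells, *Gjb1* fell by 3.50 ± 0.33 on the log2 scale (edgeR adjusted p = 1.4e-08) and *Panx1* was higher by 5.13 ± 0.28 (edgeR adjusted p = 3.2e-12) in the newly formed ones. Of the 7 members tested, 3 were called, where 32.4% of 15344 genes were. Calls of all genes were 1927 higher and 3051 lower with TMM, 3606 and 1389 without it, and 2589 and 2128 in DESeq2. The third member called was *Gja4*, at the edge of the threshold (edgeR adjusted p = 0.0497). Newly formed cells held 0 *Gja4* UMIs in both libraries, and mature cells 16 and 2. *Gjc3* was higher in CPM in the newly formed cells of both libraries, but the fitted difference was -0.01 ± 0.22 with TMM and 0.43 without it, and neither passed (edgeR adjusted p = 1 and 0.188).

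Between newly formed and OPC-like cells, 5 of the 7 members were called, where 40.3% of all genes were, 3085 of them higher and 3103 lower with TMM and 1597 and 5455 without it. *Gjc3* was higher by 1.47 ± 0.25 on the log2 scale (edgeR adjusted p = 4.9e-05), *Gjb1* by 1.18 ± 0.38 (edgeR adjusted p = 0.0150) and *Panx1* by 0.94 ± 0.23 (edgeR adjusted p = 0.0023). Without TMM the median of all genes moved from -0.02 to -0.43, *Gjb1* was at 0.73 and *Panx1* at 0.47, and these 2 no longer passed. *Gjb6* and *Gja4* also fell (edgeR adjusted p = 0.0259 and 0.0364), from a mean of 8.08 and 1.71 CPM in OPC-like cells. Both started low. *Gjb6* was at 13.5 and 2.67 CPM in OPC-like cells, beside 7.15 and 13.6 CPM in erythroid-like cells. The *Gja4* level of OPC-like cells rested on 7 UMIs.

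Mature cells were not uniform in *Gjb1*. In a cluster of 386 cells led by *Klk6*, *Gjb1* was at 469 and 519 CPM, and in the cluster of 1023 cells led by *Ptgds* it was at 228 and 263 CPM. *Gjc3* differed less between them, at 519 and 500 CPM against 513 and 569 CPM. As a share of the summed UMIs of *Gjb1* and *Gjc3*, *Gjb1* made up 47.5% and 50.9% in the *Klk6* cluster and 30.8% and 31.6% in the *Ptgds* cluster. In the main OPC cluster the share was 6.03% and 5.96%, and in newly formed cells 3.59% and 6.22%. The cluster with a median of 22.3% mitochondrial UMIs lay with the *Ptgds* cluster in *Gjb1*, at 223 and 282 CPM, and had *Gjc3* at 695 and 544 CPM. These clusters come from the same fit to the same cells and are given without a test.

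**Figure D4:**
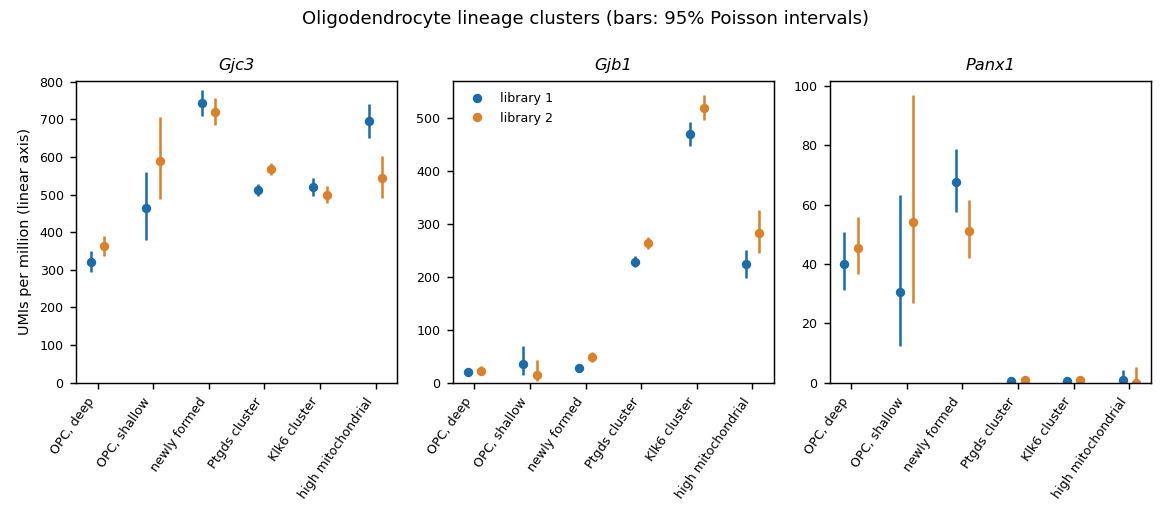
Level of *Gjc3*, *Gjb1* and *Panx1* in CPM, on a linear axis for each gene, in the clusters of the oligodendrocyte lineage, with 1 point per library and 95% Poisson intervals. *Gjc3* is high in every cluster, *Gjb1* is highest in the *Klk6* cluster, and *Panx1* is near 0 in the 3 mature clusters.

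In the vessel wall, *Gjc1*, *Gja4* and *Gja5* encode Cx45, Cx37 and Cx40, connexins known from smooth muscle and endothelium. *Gjc1* was at 361 and 413 CPM in mural-like cells, the contractile and pericyte cells around vessels, and at 191 and 169 CPM in endothelial-like cells. The classes did not overlap, and both rose against the others, by 6.06 ± 0.18 on the log2 scale (edgeR adjusted p = 1.8e-14) and 4.94 ± 0.19 (edgeR adjusted p = 3.2e-13). Neuroblast-like cells followed at 20.1 and 17.7 CPM (1.12 ± 0.24, edgeR adjusted p = 7.6e-04). Most of that level came from dividing progenitor-like cells, which had 34.2 and 27.8 CPM at the finer resolution, against 3.79 and 0 CPM in the neuroblast-like cells that remained.

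*Gja4* was at 324 and 253 CPM in mural-like cells, a rise of 7.13 ± 0.17 on the log2 scale (edgeR adjusted p = 2.5e-15). Endothelial-like cells held 11.2 and 13.4 CPM and also passed, at 2.18 ± 0.28 (edgeR adjusted p = 5.6e-06). All other classes were at a mean of 2.00 CPM or less. *Gja4* UMIs were found in 59.1% of mural-like cells and 3.10% of endothelial-like cells, or in 28.7% and 0.886% after thinning. In the thinned mural-like cells of the finer resolution, without fibroblast-like cells and cells with endothelial genes, *Gjc1* and *Gja4* were found together in 27 of 211 cells and in 29 of 155.

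Mural-like cells were divided into pericyte-like and smooth muscle-like cells, which raised 7 of 7 of their markers each, and further subclusters. In the 154 pericyte-like cells *Gjc1* was at 705 and 963 CPM, and in the 113 smooth muscle-like cells at 243 and 226 CPM. *Gjc1* fell by 1.47 ± 0.20 on the log2 scale from pericyte-like to smooth muscle-like cells (edgeR adjusted p = 2.1e-05). *Gja4* was at 517 and 522 CPM in pericyte-like and at 414 and 292 CPM in smooth muscle-like cells. That difference was -0.24 ± 0.19 and did not pass (edgeR adjusted p = 0.412), but without TMM, where the median of all genes moved from -0.02 to -0.33, it was -0.58 and passed (edgeR adjusted p = 0.0380). Of 4 members tested 1 was called, where 27.8% of 6406 genes were, 978 of them higher and 800 lower with TMM and 679 and 1357 without it. As a share of the pair, *Gja4* made up 42.3% and 35.1% of the UMIs in pericyte-like and 63.0% and 56.4% in smooth muscle-like cells.

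The remaining mural-like cells were 160 shallow cells (median 1066 UMIs), 63 cells that held endothelial genes such as *Cldn5* at a median of 15704 UMIs, and 63 fibroblast-like cells, which raised 6 of 6 markers. Fibroblast-like cells of the brain lie in the meninges and around larger vessels. They had *Gja1* at 346 and 581 CPM, *Gjb6* at 500 and 206 CPM and *Gjb2*, the gene of Cx26, at 361 and 236 CPM, while *Gjc1* was at 34.6 and 24.2 CPM. The *Gjb6* that raised mural-like cells in the class comparison (1.83 ± 0.23, edgeR adjusted p = 4.9e-06) therefore lay mostly in these cells. By the finer clustering they held 102 of 113 mural *Gjb6* UMIs in library 1 and 31 of 35 in library 2. At that resolution 29 and 34 other cells of the class had moved to endothelial-like cells, and the 246 and 187 mural-like cells that remained had *Gjb6* at 6.20 and 3.28 CPM and *Gja1* at 32.8 and 43.7 CPM. In fibroblast-like cells the *Gjb6* share of the pair was 62.6% and 31.6%, above the 24.3% and 16.1% of astrocyte-like cells in both libraries.

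Among endothelial-like cells a subcluster of 168 arterial-like cells raised 8 of 8 markers, and no capillary-like or venous-like subcluster could be named. With doublets kept or cells under 20% mitochondrial UMIs a venous-like subcluster of 116 or 118 cells formed, which was not compared here. Arterial-like cells were therefore compared with all other endothelial-like cells. Those others held a subcluster of 706 cells and shallow ones of 265 and 222 cells (median 916 and 791.5 UMIs). They also held 37 cells led by *Gpr17* and 15 led by *C1qc*. *Gja4* was at 32.0 and 56.3 CPM in arterial-like cells and at 5.88 and 4.42 CPM in the others, a rise of 2.71 ± 0.36 on the log2 scale (edgeR adjusted p = 2.2e-05). *Gjc1* ran the other way, at 140 and 93.9 CPM against 204 and 185 CPM. Among the others it was at 227 and 191 CPM in the 706 cells and 220 and 172 CPM in the 265. It was at 89.3 and 154 CPM in the 222, 92.5 and 129 CPM in the 37 and 57.4 and 129 CPM in the 15. These were below arterial-like cells in library 1 and above them in library 2. *Gjc1* fell by 0.71 ± 0.14, which passed in edgeR (adjusted p = 0.00211). The fall did not pass in DESeq2 (adjusted p = 0.224) or without the library as a block (edgeR adjusted p = 0.304). Nor did it pass with doublets kept (edgeR adjusted p = 0.109), where the arterial-like subcluster was a different set of 315 cells. Of 4 members tested 3 were called, where 8.46% of 9649 genes were, and the third was *Gjc3*, lower in arterial-like cells (edgeR adjusted p = 0.0410). *Gja1* did not differ beyond its error (-0.14 ± 0.18, edgeR adjusted p = 0.796).

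*Gja5*, the arterial connexin by reputation, was rare. Endothelial-like cells held 5 UMIs in 4 cells of library 1 and 8 UMIs in 5 cells of library 2, which is 1.47 and 3.25 CPM. Of these 13 UMIs, 12 lay in arterial-like cells, at 5.82 and 18.8 CPM. The other endothelial-like cells held 1 UMI in library 1 and 0 in library 2, where a count of 0 allows up to 1.47 CPM. Mural-like cells held 1 UMI in each library, both in the 63 cells that also held endothelial genes. Astrocyte-like, oligodendrocyte-like, OPC-like, neuron-like and macrophage-like cells held 0. The counts were too few for the filter, so the difference between arterial-like and other cells has no test.

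**Figure D5:**
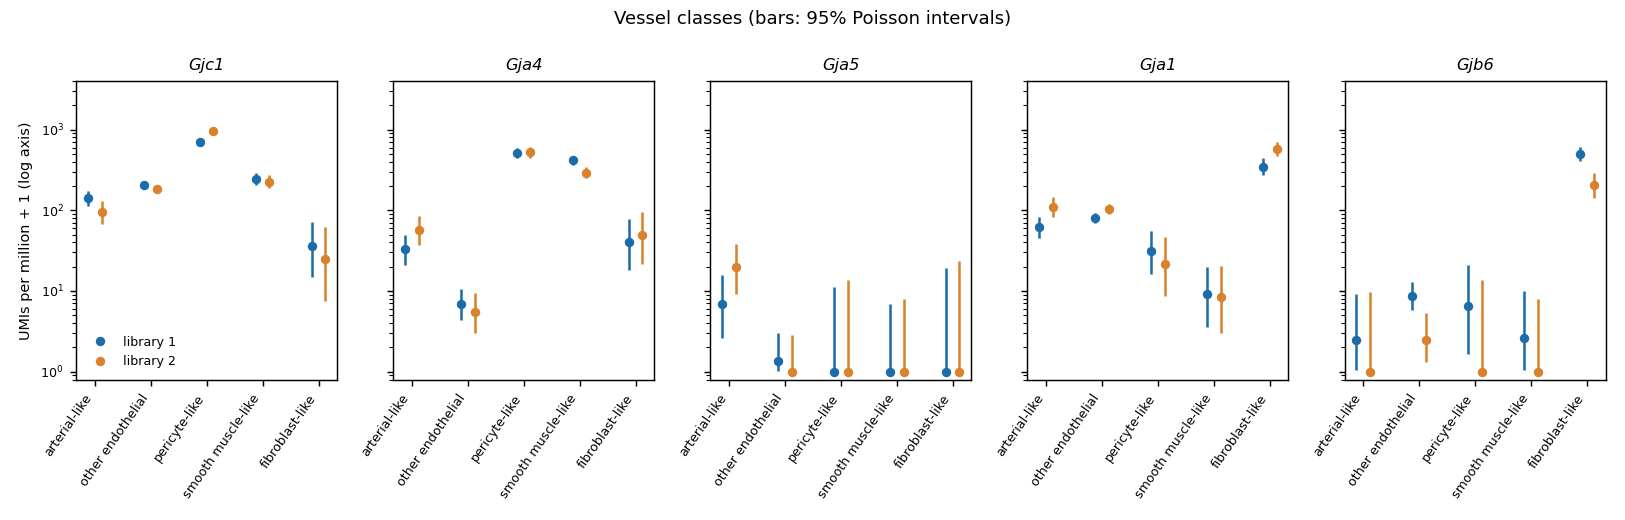
Level of *Gjc1*, *Gja4*, *Gja5*, *Gja1* and *Gjb6* in the vessel cell types, as CPM plus 1 on a log axis, with 1 point per library and 95% Poisson intervals. *Gjc1* is highest in pericyte-like cells, *Gja4* separates arterial-like from other endothelial-like cells, *Gja5* is seen mainly in arterial-like cells, and *Gja1* and *Gjb6* are highest in fibroblast-like cells.

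*Gjd2* encodes Cx36, the connexin of electrical synapses between neurons. Neuron-like cells held 0 UMIs in 382 cells of library 1, which allows up to 1.92 CPM, and 8 UMIs in 8 of 259 cells of library 2, or 6.42 CPM. Neuroblast-like cells held 8 and 4 UMIs, at 1.18 and 1.54 CPM. The neuron-like and neuroblast-like ranges overlapped, and no class separated in both libraries from the rest at this depth. Neuron-like cells were 641 of the 12007 cells and had a median of 2501.5 and 2632 UMIs.

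*Panx1* was low and spread over several classes. It was at 38.9 and 46.3 CPM in OPC-like cells, 31.4 and 26.2 CPM in neuroblast-like cells and 14.7 and 24.1 CPM in neuron-like cells, in that order in both libraries. These 3 classes passed the test, at 2.16 ± 0.19, 1.86 ± 0.18 and 1.03 ± 0.25 on the log2 scale (edgeR adjusted p = 6.9e-08, 1.4e-07 and 0.00186). With cells thinned neuron-like cells no longer passed, at 0.58 (edgeR adjusted p = 0.190). Endothelial-like, astrocyte-like and mural-like cells were lowest, at a mean of 2.39, 1.94 and 1.17 CPM, and all 3 were lower than the other classes by the test. *Panx1* UMIs were found in 22.7% of OPC-like and 14.5% of neuroblast-like cells, but in 3.81% and 3.32% after thinning.

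Oligodendrocyte-like cells also passed for *Panx1*, at 11.8 and 7.92 CPM (0.73 ± 0.17, edgeR adjusted p = 0.00128), but that level came almost wholly from newly formed cells. They held 166 of 174 *Panx1* UMIs of the class in library 1 and 108 of 119 in library 2. At the finer resolution, with the newly formed cells as their own class, *Panx1* in mature oligodendrocyte-like cells was below the mean of the other classes by 2.53 on the log2 scale. The direction of the class result thus turned with the resolution of the clusters. *Panx1* was higher in CPM in newly formed cells than in OPC-like cells as a class in both libraries, and near 0 in every mature cluster.

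Other genes of the same machinery were taken from 3 lists. Of 14 other connexin and pannexin genes 3 had enough counts to be tested. *Gjb2* was higher in mural-like and astrocyte-like cells, at 39.97 and 25.9 CPM and at 18.8 and 17.9 CPM. The mural value came almost wholly from fibroblast-like cells, which held 73 and 38 UMIs at the finer resolution, against 1 and 2 in the mural-like cells that remained. *Panx2* was highest in neuron-like cells, at 11.5 and 12.04 CPM. The other 11 genes did not pass the filter.

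All 9 partners and regulators of connexins were tested, and they did not follow 1 class. *Hepacam*, an adhesion protein known to hold connexins at astrocyte contacts, was highest in astrocyte-like cells, the class of *Gja1* and *Gjb6*, at 430 and 476 CPM. It was also called higher in oligodendrocyte-like cells, at 223 and 230 CPM, and in OPC-like cells, at 212 and 160 CPM. *Tjp1*, the scaffold ZO-1 that binds connexin tails, was highest in endothelial-like cells at 526 and 619 CPM. The kinase *Src* was highest in OPC-like cells at 66.4 and 87.7 CPM, *Csnk1d* in microglia-like cells at 71.8 and 78.0 CPM, and the ubiquitin ligase *Nedd4* in neuroblast-like cells at 684 and 798 CPM. *Cnst* and *Ubqln4*, which act in connexin traffic and turnover, were highest in neuron-like cells at 34.6 and 36.9 CPM and at 39.8 and 32.1 CPM, and *Ccn3* in mural-like cells at 48.1 and 36.7 CPM. In astrocyte-like cells 4 of 9 were higher, where 29.0% of all genes were, and 3 lower, with a median of -0.20 on the log2 scale against -0.10 for all genes. In endothelial-like cells 5 were higher, where 26.3% of all genes were, and 2 lower, with a median of 0.39 against -0.10.

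Of 11 other large-pore channel genes 8 were tested. *P2rx7*, the ATP receptor often studied together with *Panx1*, was highest in macrophage-like cells at 200 and 190 CPM, where *Panx1* did not pass. *P2rx7* was also called higher in microglia-like cells, at 79.1 and 101 CPM. The same held in OPC-like cells, the class where *Panx1* was highest, with *P2rx7* at 51.9 and 68.1 CPM. *Calhm2* was highest in microglia-like cells at 43.1 and 51.7 CPM. The volume-regulated anion channel genes differed in their highest class, but each was called higher in several. *Lrrc8a* was at 177 and 147 CPM and *Lrrc8c* at 133 and 150 CPM in endothelial-like cells. *Lrrc8b* was at 72.1 and 91.7 CPM and *Lrrc8d* at 43.7 and 61.9 CPM in oligodendrocyte-like cells. The libraries overlapped with those of astrocyte-like cells for *Lrrc8a*, at 161 and 137 CPM, and of OPC-like cells for *Lrrc8d*, at 35.8 and 55.6 CPM. Both of these classes were also called higher. In microglia-like cells, where 0 of the 7 members were higher, 4 of the 8 other large-pore genes were higher and 2 lower. This was against 34.2% of all genes higher, by a split that moved with the scaling. The median was 0.46 on the log2 scale against -0.03 for all genes. Also in endothelial-like and mural-like cells 4 of the 8 were higher, against 26.3% and 22.9% of all genes.

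The genes whose pattern over the 18 sums of class and library was most like each member's were named by Pearson correlation of log2(CPM + 10), among 7574 genes. They were *Prodh* (0.96) for *Gja1*, *Ppp1r3c* (0.99) for *Gjb6*, *Myrf* (0.98) for *Gjb1*, *Gal3st1* (0.99) for *Gjc3*, *Smtn* (0.99) for *Gjc1*, *Ptgis* (0.99) for *Gja4* and *Uchl3* (0.92) for *Panx1*. The next in order were *Fmo1* and *Fgfr3* for *Gja1*, *Prodh* and *Phkg1* for *Gjb6*, *Fa2h* and *Cpox* for *Gjb1*, *Il1rap* and *Erbb3* for *Gjc3*, *Cavin1* and *Net1* for *Gjc1*, *Higd1b* and *Gper1* for *Gja4*, and *Heatr6* and *Eif2a* for *Panx1*. Between members, *Gja1* and *Gjb6* correlated at 0.91, *Gjb1* and *Gjc3* at 0.87 and *Gjc1* and *Gja4* at 0.86. The sums share 2 libraries and their free RNA, so the values are a description.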

How the data were processed

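The authors deposited raw UMI counts per gene and barcode for each library, made with Cell Ranger on mm10. The submitters' processing notes name Cell Ranger 4.0. The library protocol names chemistries v2 and v3 without saying which library used which. The members, the gene lists and the markers were chosen with earlier results of these data known.

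A barcode was kept as a cell when it had at least 300 genes, and a gene when more than 3 cells had it (python 3.11.15 with pandas 2.3.3, scipy 1.17.1 and numpy 2.4.6). Scrublet (scanpy 1.11.5) was run on each library with 6% doublets expected, and the 1.39% and 2.96% of cells it marked were left out. Each cell was then scaled to 10000 UMIs and put on the natural log scale, and Seurat 5.3.0 (R 4.3.3) integrated the libraries by canonical correlation analysis on 2000 variable genes and clustered cells on 30 principal components at resolution 0.08, with 0.32 for finer clusters. The 44 genes of the members and lists and *Crym* were left out of the variable genes. A cluster was named when at least 3 markers were at least 2 times as high as in the remaining cells, after adding 10 CPM to both, and 1 was among its 50 leading genes, and subclusters also needed 50% of their markers. The neuroblast-like class includes dividing progenitor-like cells, and the rebuilt classes can differ from those of the study.

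UMI counts were summed per library and class and tested in edgeR 4.0.16 (TMM, filterByExpr, prior count 2, library as a block because the classes of a library come from 1 suspension) at an adjusted p under 0.05. The error given with ± is the absolute log2 fold change divided by the square root of the F statistic of that test. It is not an error that edgeR estimates itself. The *Crym* groups, split at a natural log value of 0.25 as in the study, were tested over genes seen in 10% or more of the cells in one or both groups. Tests planned for capillary-like and venous-like cells could not be made with the main clusters, and the arterial and finer comparisons were added after seeing the data. Library totals were 44597660 and 37982720 UMIs. Levels carry exact Poisson and shares exact binomial intervals at 95%, and a count of 0 was given the upper limit of 3 counts. The tests were checked on simulated counts in which few genes changed, as many up as down, and in the astrocyte-like sums only. That check does not cover scaling where many genes differ between classes, as they do here. The alternatives were DESeq2 1.42.0, no TMM, no filter on low counts, no block, other resolutions, doublets kept, at least 500 detected genes, under 20% mitochondrial UMIs, cells thinned to 1000 UMIs, another *Crym* threshold and each library left out. The listed genes named were those that passed and reached 20 CPM in both libraries of a class, and the genes of like pattern reached 50 CPM. The values of some listed genes are not reported here. *Panx2* and the genes that lead clusters were named after their values were seen. Sequences were read from GRCm38 and from RefSeq tables.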

Additional observations from a re-analysis of the deposited data

Results flagged for a closer look

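Erythroid-like cells entered no comparison, yet held UMIs of astrocyte and oligodendrocyte connexins above the limit that a count of 0 would allow. In library 1, with 85 such cells, *Gja1* was at 22.9 CPM from 16 UMIs, *Gjb6* at 7.15 CPM from 5 and *Gjc3* at 14.3 CPM from 10. In library 2, with 11 such cells, *Gja1* was at 109 CPM from 8 UMIs in 3 cells. *Gjc1*, *Gja4*, *Gja5*, *Gjd2* and *Panx1* were at 0 UMIs in the erythroid-like cells of both libraries.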

How the results depend on the processing

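Of 265 alternative values of the main results 247 were counted as unchanged. A tested value was unchanged when it kept its side of the threshold with no called value turned. A value with a library left out has no test. It was counted as unchanged when its distance from the main value was under the standard deviation of the 2 leave-out values. A main value midway between those 2 always meets that rule, so these values say little about stability. The count of members called higher was judged by its size. Of the other 18, 9 no longer passed, 4 newly passed, 2 reversed and 3 moved without a test. Among values that did not pass, *Gja1* between *Crym*+ and *Crym*- cells turned to -0.08 with cells thinned, and *Gjc3* between newly formed and mature cells to 0.18 in DESeq2, 0.43 without TMM, 0.01 without the block and 0.12 without replicate 2. *Panx1* in oligodendrocyte-like cells was at 0.32 without TMM and 0.40 with cells thinned, and no longer passed, and it reversed to -2.53 at resolution 0.32 and -2.57 under 20% mitochondrial UMIs, where newly formed cells were not in the class. *Panx1* in neuron-like cells fell to 0.58 with cells thinned. Under 20% mitochondrial UMIs the neuron-like cluster held 1150 cells and also raised 6 markers of newly formed oligodendrocytes, and its leading genes included *9630013A20Rik* and *Bmp4*. The *Panx1* value of the neuron-like class in that setting is therefore not one of neuron-like cells alone. Between newly formed and OPC-like cells, *Panx1* at 0.47 without TMM and *Gjb1* at 0.73 without TMM or 1.15 in DESeq2 did not pass. *Gja4* passed between smooth muscle-like and pericyte-like cells at -0.58 without TMM. *Gjc1* in arterial-like cells did not pass at -0.74 in DESeq2, -0.71 without the block and -0.29 with doublets kept. In the last setting the arterial-like subcluster held 315 cells, against 168 in the main clusters. Between *Crym*+ and *Crym*- cells, *Gja1* passed at 0.20 with no filter on low counts, and *Gjb6* at -0.31 with at least 500 genes and -0.32 under 20% mitochondrial UMIs. The causes were not tested beyond what is named.

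Leaving out each library in turn gave values with no test. *Gjc1* in endothelial-like cells ranged from 4.83 to 5.27, *Gja4* in endothelial-like cells from 2.10 to 2.48 and *Gja4* in mural-like cells from 7.05 to 7.37. *Gjb6* between *Crym*+ and *Crym*- cells ranged from -0.43 to 0.11, negative without library 1.

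The library was kept as a block since its classes share a suspension. Without the replicate block, counts of called genes fell from 816 to 84 between arterial-like and other endothelial-like cells and from 547 to 2 between *Crym*+ and *Crym*- cells, and of the members it ended the call of *Gjc1* in arterial-like cells. The *Crym* count was 46 in DESeq2, 249 without TMM, 1035 with no filter, 225 at resolution 0.32 and 102 with cells thinned. In DESeq2 267 genes were called for arterial-like and 899, against 1778, for smooth muscle-like cells. Thinning lowered counts of calls in 7 of 9 classes by over 1.5 times, from 2240 called in mural-like to 4464 in neuroblast-like cells, and to 554 and 229 for the smooth muscle-like and arterial-like comparisons. At resolution 0.2 no arterial-like subcluster formed, so that setting has no value. Depth limits *Gja5*, *Gjd2* and every share of cells with a UMI.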

Other observations

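Dividing progenitor-like cells, 304 and 147 in the libraries, held *Gja1* at 60.6 and 38.9 CPM, *Gjc1* at 34.2 and 27.8 CPM and *Panx1* at 30.0 and 18.5 CPM. The neuroblast-like cells that remained at the finer resolution held *Gja1* at 36.5 and 21.04 CPM, *Gjc1* at 3.79 and 0 CPM and *Panx1* at 33.4 and 40.9 CPM. The connexin pair thus was higher in progenitor-like cells of both libraries, while *Panx1* was lower in them, a difference noticed in the data and not tested.

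*Gjd2*, the neuronal connexin, was found in ependymal-like cells at 3 and 2 UMIs among 85 and 65 cells, or 4.62 and 3.64 CPM. All of these UMIs lay in the 26 and 14 cells of that cluster that the coarse resolution placed with neuroblast-like cells, and the other 59 and 51 cells held 0. The 63 mural-like cells that also held endothelial genes had *Gjc1* at 369 and 417 CPM and *Gja4* at 183 and 117 CPM, with a *Gja4* share of the pair of 33.1% and 21.9%, below that of pericyte-like and smooth muscle-like cells. Their median of 15704 UMIs was above that of either, and whether they are doublets that the caller missed was not tested.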
